A study of Mus musculus with 6 samples.

Results

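The genes described here are the subunits of potassium, sodium, calcium, pacemaker and transient receptor potential (TRP) channels. They were chosen by symbol alone from either deposited table. The names taken begin with Kcna to Kcnv, Scn, Cacna, Cacnb, Cacng, Hcn, Trpc, Trpv or Trpm in the form these families use. *Kcnq1* and *Kcnq1ot1* also begin so but were left out by name, so no count of members or families covers them. The choice gave 121 of the 16279 genes that either table lists. Of these, 117 encode channel subunits. The other 4 share only the letters: *Kcnrg* encodes a regulator of Kv channel assembly, *Trpc4ap* encodes a protein that associates with TRPC4, and *Kcnmb4os2* and *Trpc5os* are transcripts from the opposite strand of channel genes.

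The data are bulk RNA-seq of 3 libraries of mESCs and 3 libraries of CPCCs, the cardiac precursor cultures derived from them. The mESCs were male F1 embryonic stem cells from a C57BL/6J mother and a CAST/EiJ father, grown without feeder cells in 2i medium, which holds the inhibitors PD0325901 and CHIR99021, with LIF. They comprised 3 clones, each grown from a single cell of a separate blastocyst-derived line, and neither group carries an engineered gene change. The CPCCs came from the same 3 clones through hanging-drop aggregates and embryoid bodies in medium with ascorbic acid, then dissociation and culture with EGF and Fgf2, and were collected at the fourth passage as mixed cultures of cardiac stem and precursor cells and other cells. The libraries are named as in the table columns, S01 to S03 for mESCs and S04 to S06 for CPCCs, and no column could be tied to a clone. Library totals were 6442639 to 6907330 counts in mESCs and 8468819 to 11436062 in CPCCs, with S04 the deepest.

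Ion channels are membrane proteins that let ions pass when voltage, a ligand, temperature or stretch opens them. In the heart, sodium channels start the action potential, L-type calcium channels couple it to contraction, several potassium channels end it and hold the resting potential, and HCN and T-type calcium channels contribute to pacemaking. Pore-forming subunits carry the current, while accessory subunits set how many channels reach the membrane and how they gate.

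Most of these genes were listed for CPCCs, and many of them were missing from the mESC table. Of the 121 genes, 62 were listed for mESCs and 113 for CPCCs. Both tables listed 54 genes (44.6%), the CPCC table alone listed 59 (48.8%), and the mESC table alone listed 8 (6.61%). Among all genes in either table, 15.5% were in the CPCC table only and 4.67% in the mESC table only. Each table held only genes with at least 10 counts over its 3 libraries, and the CPCC libraries were deeper. After scaling the CPCC counts to the mESC depth, 100 members still reached 10 counts and 47 of them (47.0%) were in the CPCC table only, against 14.3% of all genes that reached that sum. Levels are given as CPM, the normalized count on a scale of 1000000 counts per library. The members were weakly expressed, with a median level among listed genes of 1.73 CPM in mESCs and 2.12 CPM in CPCCs, against 21.8 and 21.5 CPM over all listed genes.

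**Figure D1:**
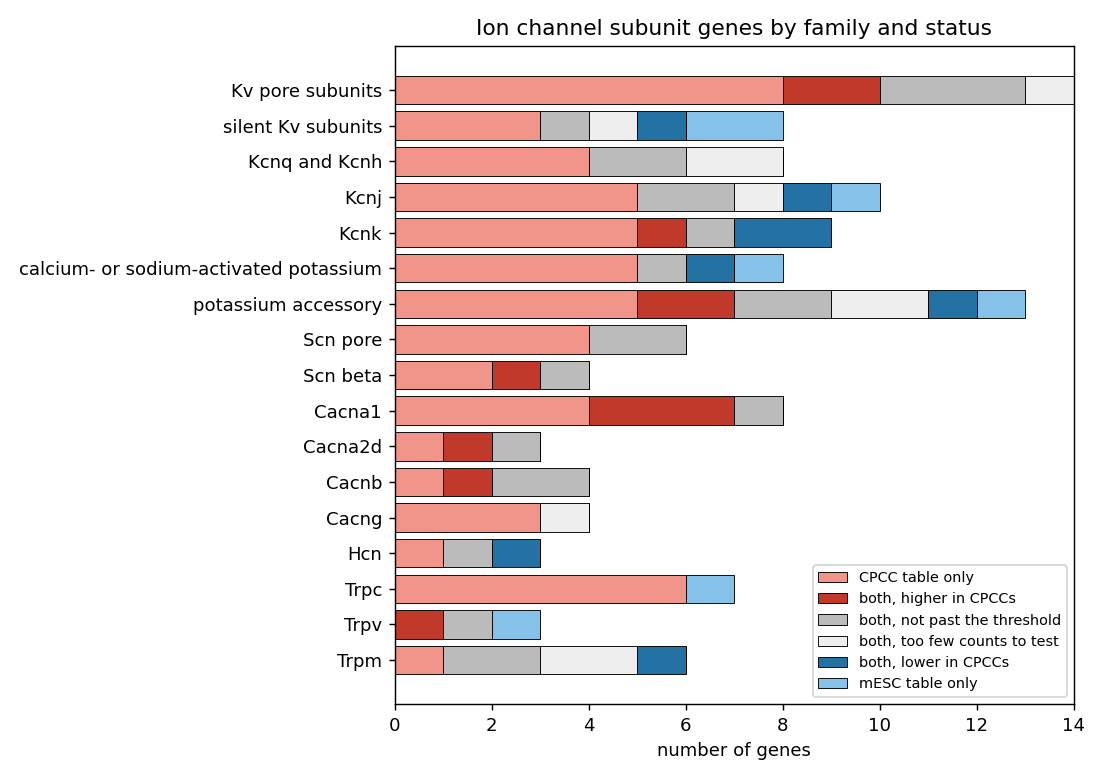
Number of genes (x axis) in each channel family (y axis), coloured by whether the gene was in 1 table only, was higher or lower in CPCCs in the test, did not pass it, or had too few counts to be tested. Genes found only in the CPCC table make up 59 of all 121 members and occur in every family drawn except Trpv.

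Of the 54 genes in both tables, 44 passed edgeR's filter on low counts and were tested. In CPCCs 13 of them were higher, 8 were lower and 23 did not pass an adjusted p of 0.05 in edgeR's quasi-likelihood test, adjusted by Benjamini-Hochberg over 12471 genes. Log2 fold changes below are given ± their standard error (SE), with adjusted p-values from that test. The higher share was 29.5% of the tested members against a background of 31.7% of all tested genes, and the lower share was 18.2% against 29.7%. In either direction 47.7% of the tested members were called, against 61.4% of all genes. All 21 called members changed at least 2-fold and had no overlap between the libraries of the groups. At low counts smaller changes seldom pass the test, so this is not read as a trait of the channels. Without regard to the test, CPCC libraries lay wholly above mESC libraries for 15 members (34.1%, background 35.3%) and wholly below for 10 (22.7%, background 34.5%). Tested members had a median log2 fold change of 0.51, against 0.031 over all tested genes. The count of lower members was 5 without S01, 5 without S03 and 4 without S05, and the count of higher members lay between 12 and 17 whichever library was left out. With at least 10 counts required in every library, 15 members could be tested, of which 2 were higher and 4 lower, with a median of 0.070. The 2 higher ones were *Cacnb3* and *Trpc4ap*, which is not a channel subunit. This filter drops genes with few mESC counts, such as *Cacna1c*, so it cannot show whether their rises hold. The median was 0.24 without S06. In bulk samples, fewer cells of a type and less RNA per cell cannot be told apart.

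**Figure D2:**
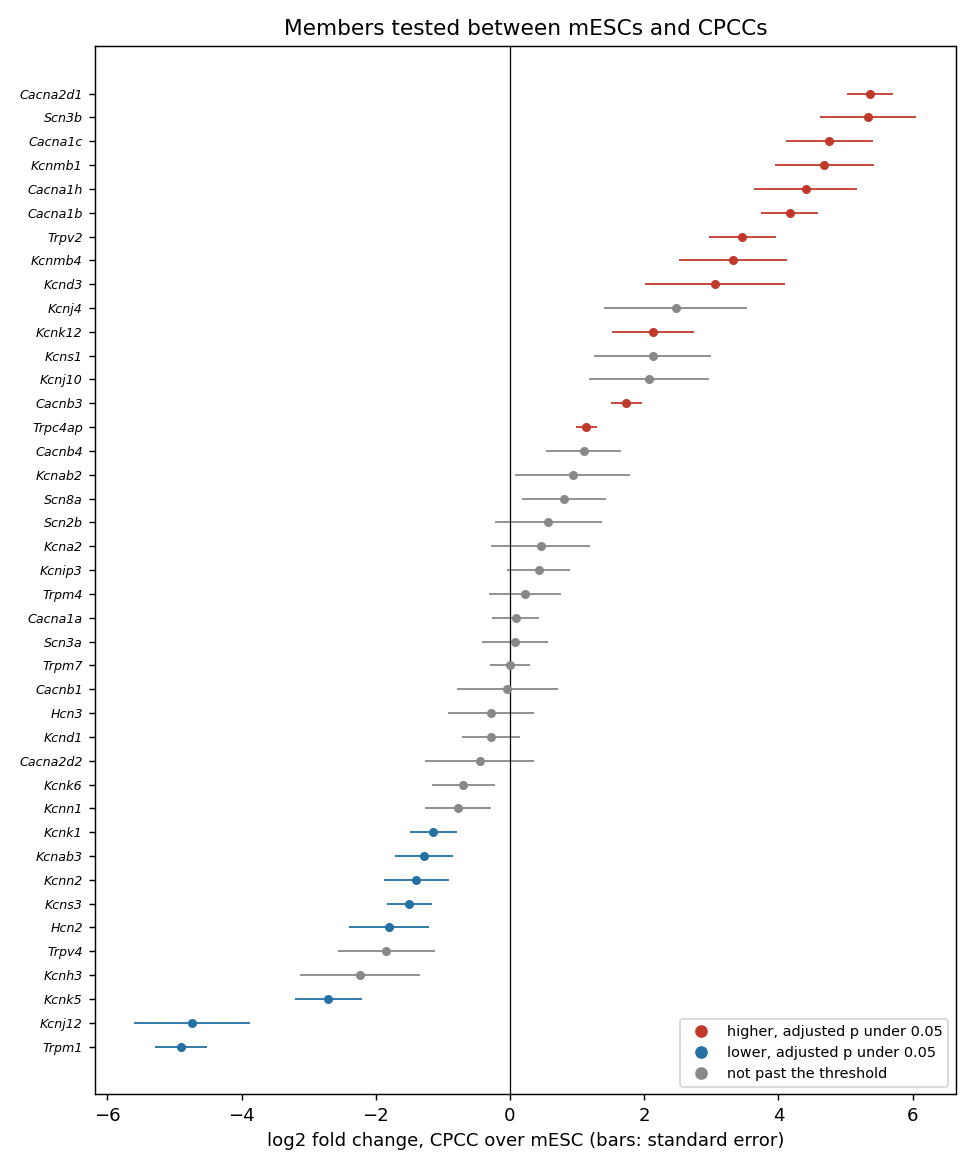
Log2 fold change of CPCCs over mESCs (x axis) for 41 of the 44 tested members (y axis), with bars of 1 standard error and colour for the call. Values run from -4.90 for *Trpm1* to 5.37 for *Cacna2d1*, with 12 higher members in red and 8 lower ones in blue.

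The reference sequence at the start of 6 called genes is printed here because these genes span the largest changes in both directions and fall into 2 unlike kinds of promoter. They are the 3 largest rises and 3 largest falls for which RefSeq (GRCm38.p6) has a start at, or 1 base from, the start in the tables. Each sequence covers 250 bases before to 50 bases after that start, on the gene's own strand from 5′ to 3′, and capitals mark CpG dinucleotides. The first 3 genes rose and the last 3 fell.
Cacna2d1, plus strand of chr5:15934441-15934740: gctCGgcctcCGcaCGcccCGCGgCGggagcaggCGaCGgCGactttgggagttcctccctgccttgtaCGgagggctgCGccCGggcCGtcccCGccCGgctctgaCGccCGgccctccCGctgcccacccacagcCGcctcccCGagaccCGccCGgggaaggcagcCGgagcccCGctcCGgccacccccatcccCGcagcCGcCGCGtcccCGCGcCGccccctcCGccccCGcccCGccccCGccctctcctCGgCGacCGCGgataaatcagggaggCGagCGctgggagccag
Cacna1c, minus strand of chr6:119196360-119196659: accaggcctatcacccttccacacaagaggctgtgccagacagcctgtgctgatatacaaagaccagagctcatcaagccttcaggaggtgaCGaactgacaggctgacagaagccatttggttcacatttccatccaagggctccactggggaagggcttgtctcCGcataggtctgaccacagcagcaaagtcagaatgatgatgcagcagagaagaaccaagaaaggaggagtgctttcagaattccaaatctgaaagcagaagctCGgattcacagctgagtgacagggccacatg
Kcnmb1, plus strand of chr11:33962763-33963062: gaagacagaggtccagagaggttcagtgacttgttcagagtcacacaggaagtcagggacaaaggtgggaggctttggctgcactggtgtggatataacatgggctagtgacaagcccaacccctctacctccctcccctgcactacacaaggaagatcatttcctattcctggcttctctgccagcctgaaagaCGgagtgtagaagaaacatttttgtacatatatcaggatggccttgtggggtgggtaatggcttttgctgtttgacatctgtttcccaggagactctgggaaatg
Trpm1, plus strand of chr7:64153585-64153884: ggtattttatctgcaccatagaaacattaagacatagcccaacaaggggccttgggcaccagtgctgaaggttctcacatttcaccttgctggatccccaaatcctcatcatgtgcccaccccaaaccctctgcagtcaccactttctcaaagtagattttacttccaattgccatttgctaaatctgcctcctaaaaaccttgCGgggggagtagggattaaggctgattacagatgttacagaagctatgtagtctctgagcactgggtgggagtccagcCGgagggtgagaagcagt
Kcnk5, minus strand of chr14:20181733-20182032: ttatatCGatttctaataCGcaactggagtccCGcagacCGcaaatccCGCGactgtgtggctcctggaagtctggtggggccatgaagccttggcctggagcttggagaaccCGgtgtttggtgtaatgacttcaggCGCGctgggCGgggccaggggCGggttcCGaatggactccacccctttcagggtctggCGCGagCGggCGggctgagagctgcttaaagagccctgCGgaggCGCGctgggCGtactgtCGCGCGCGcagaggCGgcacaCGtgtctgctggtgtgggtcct
Hcn2, plus strand of chr10:79716384-79716683: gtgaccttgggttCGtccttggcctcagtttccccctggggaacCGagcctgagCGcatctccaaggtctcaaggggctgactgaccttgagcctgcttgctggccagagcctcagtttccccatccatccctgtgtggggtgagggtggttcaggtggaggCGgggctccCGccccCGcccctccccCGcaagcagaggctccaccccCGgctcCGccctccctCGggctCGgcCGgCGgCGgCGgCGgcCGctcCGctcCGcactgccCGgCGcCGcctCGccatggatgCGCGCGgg
The *Cacna2d1* sequence held 42 CpGs at 80.0% G and C, while that of *Cacna1c* held 3 and that of *Kcnmb1* held 1. Among the genes that fell, *Kcnk5* and *Hcn2* had 26 CpGs each and *Trpm1* had 2.

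RefSeq promoters of this length were found for 89 of the 121 members, 124 sequences in all. CpG-rich ones, with at least 50% G and C and an observed over expected CpG ratio of at least 0.6, made up 34.7% of them, against 59.2% for the genes of either table and 33.5% for all mouse promoters. By status, 8 of 15 promoters of higher members, 3 of 8 of lower members, 13 of 23 of members that did not pass the test and 16 of 61 (26.2%) of members in the CPCC table only were CpG-rich. Short motifs were searched on both strands. The GC box GGGCGG was present in 43.5% of member promoters (58.6% for genes of either table and 35.7% for all promoters), TATAAA in 6.45% (7.92% and 13.6%), the TEAD motif GGAATG in 18.5% (12.8% and 14.7%) and the AP-1 motif TGANTCA in 3.23% (5.55% and 7.81%). The E-box CANNTG was in 71.8% (65.5% and 72.3%), the octamer ATGCAAAT in 0.806% (1.40% and 1.74%) and the CArG box in 1.61% (1.40% and 1.63%). These shares are descriptions of letters in a fixed window, in which sequences of 1 gene overlap, and no match was read as a binding site.

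The pore-forming subunits of voltage-gated calcium channels (Cacna1) included the L-type and T-type pores of the heart. Of 8 members, 3 of the 4 tested rose, and the other 4 were in the CPCC table only. The summed level of the family was 11.3 to 15.0 CPM in mESCs and 66.6 to 89.7 CPM in CPCCs. *Cacna1c* (chromosome 6, 118587240 to 119196410, minus strand), the pore of the cardiac and smooth muscle L-type channel, stood at 0, 0.735 and 1.02 CPM in the mESC libraries and at 12.7, 19.9 and 16.8 CPM in the CPCC libraries, always listed here from S01 to S06. All CPCC libraries lay well above all mESC libraries (log2 fold change 4.76 ± 0.65, adjusted p = 0.000255). *Cacna1h* (chromosome 17, 25374287 to 25433784, minus strand), the pore of a T-type channel that opens at low voltage, stood at 1.39, 0 and 0.687 CPM in the mESC libraries and at 7.36, 19.2 and 19.0 CPM in the CPCC libraries. It rose too, with S04 over 2-fold below S05 and S06 (log2 fold change 4.40 ± 0.77, adjusted p = 0.00106).

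*Cacna1b* (chromosome 2, 24603889 to 24763153, minus strand), the N-type pore known for transmitter release at nerve terminals, stood at 0.772, 1.03 and 0.439 CPM in the mESC libraries and at 13.5, 13.3 and 14.2 CPM in the CPCC libraries. The 3 CPCC libraries were close to each other and the gene rose (log2 fold change 4.17 ± 0.42, adjusted p = 5.00e-05). The P/Q-type pore gene *Cacna1a*, with 10.8 ± 1.92 CPM in mESCs and 11.4 ± 4.39 CPM in CPCCs (here and below mean ± SD, n = 3), did not pass the test (adjusted p = 0.838). *Cacna1g* (chromosome 11, 94408391 to 94474199, minus strand), another T-type pore gene of the heart, was missing from the mESC table and had 15.0, 28.6 and 20.3 CPM in the CPCC libraries. Against 3 counts in each mESC library, the limit used here for every missing gene, it was at least 47.6-fold higher in CPCCs, the largest such bound of all members. The remaining CPCC-only pores, *Cacna1d* and *Cacna1e* and the skeletal muscle *Cacna1s*, were near the limit of detection, at 0.382 to 0.531 CPM.

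The accessory calcium channel subunits held the largest change of all tested members. *Cacna2d1* (chromosome 5, 15934691 to 16374512, plus strand) encodes the alpha2delta protein that brings L-type channels to the membrane. It stood at 1.39, 1.62 and 2.05 CPM in the mESC libraries and at 97.7, 61.1 and 52.8 CPM in the CPCC libraries, a 41.4-fold rise (log2 fold change 5.37 ± 0.34, adjusted p = 4.46e-06). Of its relatives, *Cacna2d2* (1.78 ± 1.25 against 1.31 ± 0.948 CPM, adjusted p = 0.648) did not pass the test. *Cacna2d3* was in the CPCC table only and came mainly from 1 library, with 0.0994, 4.24 and 0.344 CPM. The beta subunits bind the pore inside the cell. *Cacnb3* (chromosome 15, 98632328 to 98644537, plus strand) stood at 13.3, 17.9 and 17.4 CPM in the mESC libraries and at 46.4, 65.2 and 50.5 CPM in the CPCC libraries and rose (log2 fold change 1.74 ± 0.23, adjusted p = 0.000203). *Cacnb2*, the main beta subunit of the heart, was in the CPCC table only, with 8.65, 12.6 and 6.76 CPM, at least 20.9-fold above mESCs.

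*Cacnb1* (1.77 ± 1.46 against 1.71 ± 0.817 CPM) did not pass the test, with an adjusted p of 0.968. *Cacnb4* did not overlap between the groups (1.49 ± 0.661 against 3.21 ± 0.793 CPM) but had an adjusted p of 0.115. The gamma subunits, some of which serve AMPA receptors in neurons instead, were scarce. *Cacng4*, *Cacng7* and *Cacng8* were in the CPCC table only at 0.372 to 0.917 CPM, and *Cacng6* was in both tables with too few counts to test.

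**Figure D3:**
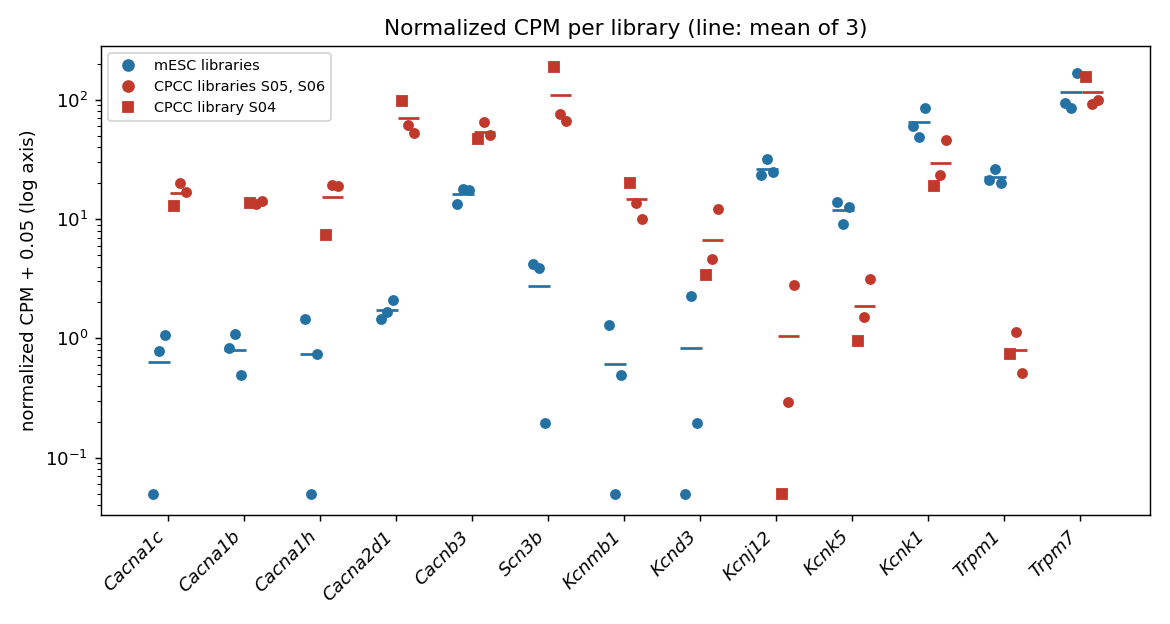
Normalized CPM plus 0.05 on a log axis for 13 members in the 3 mESC libraries (blue) and the 3 CPCC libraries (red, S04 as a square), with lines at the group means; a library at 0 sits at 0.05. The blue and red points do not overlap for any gene drawn except *Trpm7*.

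The sodium channel gene that rose encodes a beta subunit. Beta subunits are small membrane proteins that change the gating and surface density of the pore. *Scn3b* (chromosome 9, 40269216 to 40291619, plus strand) stood at 4.17, 3.82 and 0.146 CPM in the mESC libraries and at 187, 75.8 and 66.4 CPM in the CPCC libraries. It rose 40.5-fold, with S04 over 2-fold above the other CPCC libraries (log2 fold change 5.34 ± 0.72, adjusted p = 0.000233). *Scn4b* was in the CPCC table only, at 5.27, 2.18 and 0.573 CPM, with most of its reads in S04. *Scn2b* (1.81 ± 1.77 against 2.72 ± 0.464 CPM) did not pass the test (adjusted p = 0.554).

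No sodium channel pore gene passed the test. The 2 tested members were the neuronal genes *Scn3a*, with 4.62 ± 2.06 against 4.90 ± 1.84 CPM (adjusted p = 0.896), and *Scn8a*, with 4.48, 3.82 and 4.53 CPM in the mESC libraries and 1.69, 8.49 and 12.4 CPM in the CPCC libraries (adjusted p = 0.290). In *Scn8a*, S04 was below and S05 and S06 were above every mESC library, and without S04 its adjusted p was 0.0126. *Scn2a*, *Scn7a* and *Scn9a* were in the CPCC table only, at means of 1.21 to 4.34 CPM, and S05 held most of the *Scn7a* reads (0.994, 10.1 and 1.95 CPM).

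Voltage-gated potassium (Kv) channels repolarize excitable cells. Of their 14 pore genes, 8 were in the CPCC table only, 5 were tested and 2 of these rose. *Kcnd3* (chromosome 3, 105452330 to 105674003, plus strand), which carries part of the transient outward current of the heart, stood at 0, 2.21 and 0.146 CPM in the mESC libraries and at 3.38, 4.61 and 12.0 CPM in the CPCC libraries. The groups did not overlap (log2 fold change 3.05 ± 1.04, adjusted p = 0.0296), but S06 was over 2-fold above the other CPCC libraries and nearly all mESC counts were from S02. Its call was lost without S01, S03 or S06, with adjusted p of 0.0693, 0.0985 and 0.103, while the log2 fold change stayed between 2.32 and 2.56 in those fits. *Kcnd2*, the other Kv4 pore gene of the mouse heart, was in the CPCC table only at 2.19, 2.91 and 1.49 CPM, at least 4.90-fold higher. *Kcnip2*, the accessory protein of Kv4 channels in heart muscle, was in the mESC table only at 1.08, 1.32 and 1.90 CPM and at least 4.28-fold lower in CPCCs.

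Among the other Kv pores tested, *Kcna2* (1.19 ± 0.755 against 1.65 ± 0.920 CPM) and *Kcnd1* (4.77 ± 1.55 against 3.92 ± 0.705 CPM) did not pass the test, with adjusted p of 0.614 and 0.596, and *Kcnc4* had too few counts to test. Of the Kv pores in the CPCC table only, *Kcna6* had the largest bound (at least 19.1-fold), with 39.6% of its exon length shared with Gm26673. *Kcnb2* and *Kcnc1* were at 1.97 and 3.22 CPM, and *Kcna3*, *Kcna5*, *Kcna7* and *Kcnc2* were at 0.486 to 0.620 CPM. *Kcna5*, the pore of an ultrarapid current of the atria, had 0, 0.485 and 1.38 CPM.

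Silent Kv subunits form no channel alone and modify Kv2 pores. *Kcns3* (chromosome 12, 11090202 to 11150843, minus strand) stood at 14.8, 11.8 and 17.7 CPM in the mESC libraries and at 6.46, 3.76 and 5.39 CPM in the CPCC libraries and fell (log2 fold change -1.50 ± 0.33, adjusted p = 0.00399). *Kcng4* (2.16, 1.32 and 2.63 CPM, at least 6.08-fold lower in CPCCs) and *Kcns2* (0.599 CPM) were in the mESC table only. *Kcnf1* was in the CPCC table only, at 7.65, 5.21 and 4.01 CPM and at least 12.6-fold higher, while *Kcng1* and *Kcnv1*, also there only, were below 1 CPM. *Kcns1* lay higher in every CPCC library (0.618, 0.147 and 1.46 against 1.69, 6.55 and 1.72 CPM) with an adjusted p of 0.0600, which was 0.0412 in DESeq2, 0.0456 without S03, 0.0268 without S04 and 0.0477 without S06. *Kcng2* could not be tested.

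The Kcnq and Kcnh families include pores of the M-current and of cardiac repolarization. Neither of their 2 tested members passed the test, and *Kcnq1* was not among the members. *Kcnh2*, the pore of the rapid delayed rectifier of the heart, had too few counts to test, with 0.309, 1.32 and 1.17 CPM in the mESC libraries and 1.19, 0.485 and 2.52 CPM in the CPCC libraries. *Kcnh3* lay lower in every CPCC library (2.16, 2.79 and 2.78 against 0, 0.606 and 1.03 CPM) and had an adjusted p of 0.0536, which was 0.0351 without S06 and 0.0374 in DESeq2. *Kcnh1* was not tested. *Kcnq5* was in the CPCC table only, at 14.4, 7.76 and 4.47 CPM and at least 19.8-fold higher. *Kcnh7* and *Kcnq3* were also there only, at means of 0.373 to 1.53 CPM.

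Inward rectifiers (Kcnj) hold the resting potential, and 2 genes for the strong inward rectifier lay on opposite sides. *Kcnj12* (chromosome 11, 61022564 to 61073268, plus strand), the Kir2.2 pore, stood at 23.2, 31.6 and 24.6 CPM in the mESC libraries and at 0, 0.243 and 2.75 CPM in the CPCC libraries. It fell, from high and even levels to a level that came almost wholly from S06 (log2 fold change -4.73 ± 0.86, adjusted p = 0.00132). *Kcnj2* (chromosome 11, 111066164 to 111076826, plus strand), the Kir2.1 pore that dominates this current in ventricular muscle, was in the CPCC table only at 11.4, 17.8 and 9.17 CPM, at least 28.6-fold higher. Per kilobase of exon, the level of *Kcnj12* was 9.62 CPM in mESCs and that of *Kcnj2* was 2.35 CPM in CPCCs.

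The glial Kir4.1 gene *Kcnj10* stood at 1.24, 1.03 and 2.05 CPM in the mESC libraries and at 0.596, 6.43 and 11.3 CPM in the CPCC libraries, low in S04 and high in S05 and S06 (adjusted p = 0.0685, 0.0328 in DESeq2 and 0.00107 without S04). *Kcnj4* (0, 0.147 and 1.46 against 5.37, 2.79 and 1.03 CPM) had an adjusted p of 0.0698, and 0.016 without S03 and 0.0429 without S06. *Kcnj14* was in both tables with too few counts. *Kcnj15* was in the CPCC table only at 6.36, 4.85 and 4.70 CPM (at least 11.8-fold). *Kcnj5*, an atrial acetylcholine-activated pore, *Kcnj8*, an ATP-sensitive pore of vascular muscle, and *Kcnj13* were in that table at 0.413 to 0.649 CPM, and 49.1% of the *Kcnj13* exon length overlaps *Gigyf2*. *Kcnj6* was in the mESC table only, at 2.63, 0.294 and 0.585 CPM.

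Channels of the K2P family (Kcnk) carry background potassium current, and genes of this family moved both ways. *Kcnk1* (chromosome 8, 125995102 to 126030689, plus strand) stood at 59.9, 48.8 and 85.9 CPM in the mESC libraries and at 18.8, 23.4 and 46.1 CPM in the CPCC libraries. It fell (log2 fold change -1.14 ± 0.35, adjusted p = 0.0191), but its adjusted p was 0.0858 without S03 and 0.0715 without S05. *Kcnk5* (chromosome 14, 20140058 to 20181783, minus strand), an acid-sensitive channel, fell from 13.9, 9.12 and 12.6 CPM to 0.895, 1.46 and 3.09 CPM with no overlap (log2 fold change -2.71 ± 0.50, adjusted p = 0.00145). *Kcnk12* rose (1.70, 0.735 and 0.439 against 3.68, 3.88 and 5.16 CPM, log2 fold change 2.13, adjusted p = 0.0137), and without S02 its adjusted p was 0.0534.

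*Kcnk6* (11.3 ± 4.21 against 6.95 ± 3.55 CPM) did not pass the test (adjusted p = 0.225, and 0.0457 without S04). The stretch-sensitive channel genes *Kcnk10* and *Kcnk2* were both in the CPCC table only. *Kcnk10* (chromosome 12, 98429437 to 98578214, minus strand) had 5.57, 15.9 and 22.8 CPM, at least 32.9-fold higher, and *Kcnk2* had 7.16, 8.0 and 4.24 CPM, at least 14.4-fold higher. *Kcnk3*, *Kcnk4* and *Kcnk13* followed at means of 0.530 to 1.56 CPM.

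**Figure D4:**
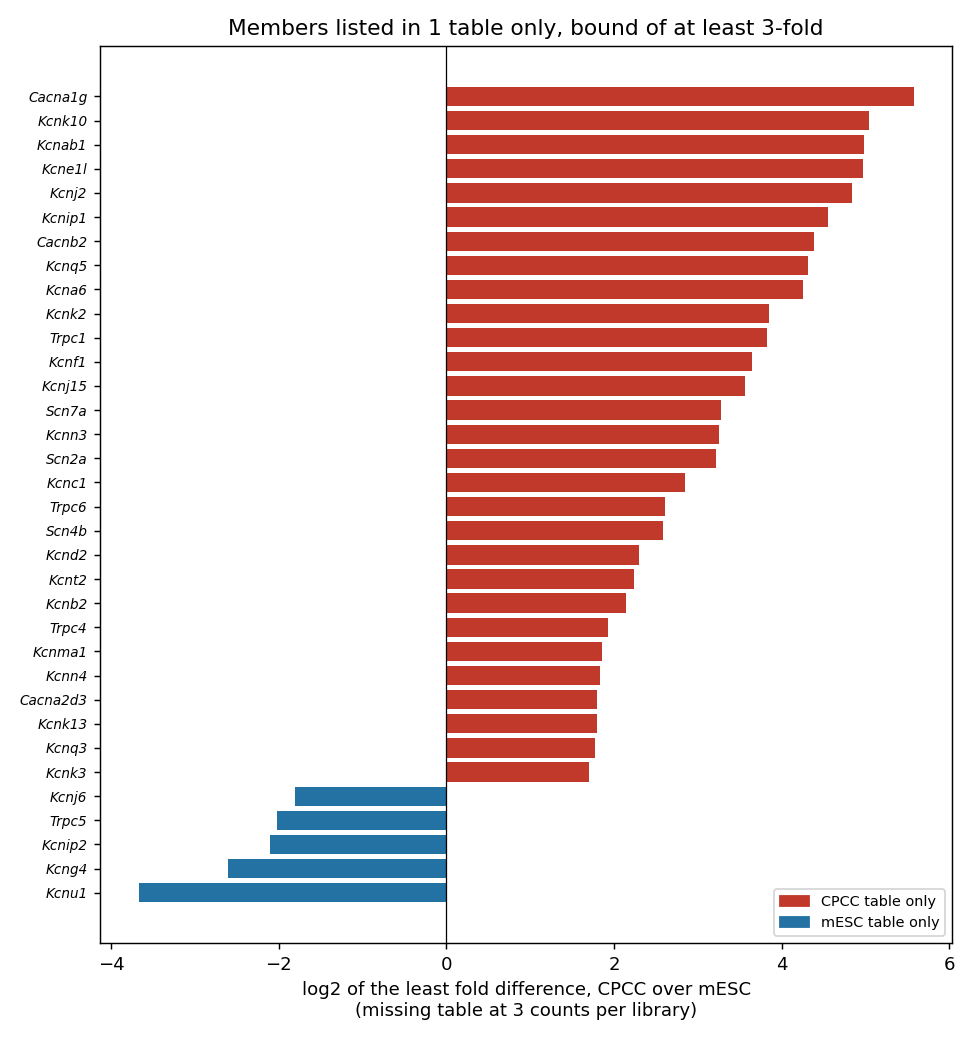
Log2 of the least fold difference of CPCCs over mESCs (x axis) for members reported here that were found in 1 table only and whose bound reached 3-fold (y axis), with the missing table set to 3 counts per library. Bars to the right are genes of the CPCC table, led by *Cacna1g* at 47.6-fold, and bars to the left are genes of the mESC table, led by *Kcnu1* at 12.7-fold.

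Over the 59 members in the CPCC table only, the median bound was 3.48-fold, against 3.30-fold over all genes found only there. The bound reached 2-fold for 37, 5-fold for 21 and 10-fold for 14 of them, and for 10 it was under 1, so that no direction can be given. Of the 59, 53 had reads in each of the 3 CPCC libraries. With missing genes entered at their bounds, the median log2 fold change was 0.98 over 111 members, against 0.19 over 15749 genes. The sign of such a gene is set mainly by the table that lists it, so these medians mostly restate the listing. The 8 members in the mESC table only had a median bound of 3.76-fold, against 3.90-fold over all genes found only there.

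Potassium channels opened by intracellular calcium or sodium were mostly CPCC-only. *Kcnma1*, the pore of the large-conductance BK channel, was in the CPCC table only at 2.39, 0.970 and 1.49 CPM (at least 3.61-fold). Its relative *Kcnu1* (chromosome 8, 25849623 to 25937935, plus strand), known as the sperm channel Slo3, was in the mESC table only at 3.55, 2.79 and 6.44 CPM and at least 12.7-fold lower in CPCCs. *Kcnn2*, a small-conductance channel, fell from 8.03, 6.01 and 7.61 CPM to 4.17, 1.30 and 2.64 CPM (log2 fold change -1.40 ± 0.49, adjusted p = 0.0319). That call was lost on leaving out any library but S04, with adjusted p of 0.091 without S01, 0.0551 without S02, 0.0799 without S03, 0.0933 without S05 and 0.0708 without S06. *Kcnn1* (5.91 ± 2.13 against 3.46 ± 1.36 CPM) did not pass the test (adjusted p = 0.198). *Kcnn3*, *Kcnn4*, *Kcnt1* and *Kcnt2* were in the CPCC table only, at means of 0.886 to 4.27 CPM.

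Accessory potassium channel subunits included 2 rises and 1 fall among 5 tested genes. Both rises were beta subunits of the BK channel. *Kcnmb1* (chromosome 11, 33963013 to 33973639, plus strand), its beta1 subunit in smooth muscle, stood at 1.24, 0 and 0.439 CPM in the mESC libraries and at 20.0, 13.7 and 9.97 CPM in the CPCC libraries (log2 fold change 4.69 ± 0.73, adjusted p = 0.000564). *Kcnmb4* (chromosome 10, 116417868 to 116473524, minus strand), the beta4 subunit known from neurons, had 1.39 and 0.883 CPM in S01 and S02, no reads in S03 after rounding and 10.3, 8.02 and 4.66 CPM in CPCCs (log2 fold change 3.33 ± 0.80, adjusted p = 0.00596). Of the *Kcnmb4* exon length, 31.5% overlaps opposite-strand transcripts, among them *Kcnmb4os2*, which was in the CPCC table only at 1.32, 1.04 and 0.608 CPM. Whether counting used the strand is not given in the sources used here, so reads of this pair cannot be told apart. *Kcnmb1* lies within the span of *Kcnip1* on the opposite strand. In all, exons of 42 members overlap those of another gene, in 11 of them over at least 10% of the exon length.

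*Kcnip1*, which binds Kv4 channels, was in the CPCC table only at 4.67, 15.3 and 11.7 CPM, at least 23.6-fold higher. *Kcnab1* (chromosome 3, 65109368 to 65378226, plus strand), a Kv beta subunit, was also there only, at 19.5, 14.4 and 8.60 CPM and at least 31.6-fold higher. Its relative *Kcnab3* fell (8.03, 6.91 and 5.41 against 2.19, 2.30 and 3.90 CPM, log2 fold change -1.28, adjusted p = 0.0293), and its adjusted p was 0.0987 without S01, 0.0749 without S02, 0.0659 without S04 and 0.093 without S05. *Kcne1l* (chromosome X, 142304753 to 142306199, minus strand), a single-span KCNE subunit, was in the CPCC table only at 8.55, 19.0 and 14.6 CPM, at least 31.4-fold higher. *Kcne1*, the subunit of the slow cardiac delayed rectifier, had 0.596, 0.485 and 2.29 CPM and *Kcne3* had 0.994, 0 and 0.344 CPM in the CPCC table. *Kcnab2* (1.28 ± 1.56 against 2.47 ± 1.23 CPM, adjusted p = 0.370, and 0.0345 without S03) and *Kcnip3* (4.67 ± 1.24 against 6.30 ± 3.19 CPM, adjusted p = 0.450) did not pass the test, and *Kcnip4* and the regulator *Kcnrg* were not tested.

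Pacemaker (Hcn) channels open on hyperpolarization. *Hcn2* (chromosome 10, 79716634 to 79736109, plus strand) fell from 3.55, 1.62 and 3.36 CPM in mESCs to 0.994, 0.728 and 0.688 CPM in CPCCs (log2 fold change -1.80 ± 0.60, adjusted p = 0.0265). Its adjusted p was 0.0942 without S01, 0.0819 without S03, 0.0823 without S05 and 0.0735 without S06. *Hcn3* (1.84 ± 0.467 against 1.53 ± 0.987 CPM) had an adjusted p of 0.728. *Hcn4*, the main pore of the sinus node, was in neither table.

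TRP channels are cation channels for calcium and other ions. All 7 canonical (Trpc) genes were in 1 table only, 6 of them in the CPCC table. *Trpc1* (6.46, 5.58 and 6.99 CPM, at least 14.2-fold higher) and *Trpc6* (2.49, 3.27 and 2.41 CPM, at least 6.08-fold higher) were even across the CPCC libraries. *Trpc4* had 3.48, 0.728 and 0.917 CPM, while *Trpc2* and *Trpc7* were below 1 CPM on average. All of the *Trpc2* exon length is shared with *Xndc1* and *Xntrpc*, so its reads are uncertain. *Trpc5*, at 2.16, 0.588 and 1.32 CPM, and the transcript *Trpc5os*, at 1.24, 0.588 and 0.731 CPM, were in the mESC table only.

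*Trpv2* (chromosome 11, 62574486 to 62600306, plus strand), a channel linked to stretch and heat, stood at 0.463, 1.03 and 0.585 CPM in the mESC libraries and at 7.95, 8.85 and 6.65 CPM in the CPCC libraries and rose (log2 fold change 3.46 ± 0.50, adjusted p = 0.000363). *Trpv4* lay lower in every CPCC library (4.63, 1.77 and 2.05 against 0.994, 1.09 and 0.229 CPM) with an adjusted p of 0.0524 (0.0433 in DESeq2), and *Trpv1*, the capsaicin receptor, was in the mESC table only at 0.743 CPM. *Trpm1* (chromosome 7, 64153835 to 64269760, plus strand), known from retinal bipolar cells and melanocytes, stood at 21.3, 26.5 and 20.2 CPM in the mESC libraries and at 0.696, 1.09 and 0.458 CPM in the CPCC libraries. This was the largest fall of all tested members, 29.9-fold (log2 fold change -4.90 ± 0.39, adjusted p = 1.30e-05). *Trpm4* (3.51 ± 1.51 against 4.11 ± 1.71 CPM, adjusted p = 0.733) did not pass the test, *Trpm3* and *Trpm6* were not tested, and *Trpm8* was in the CPCC table only at 0.400 CPM. The *Trpc4ap* gene rose (41.9, 43.8 and 44.2 against 97.9, 99.1 and 89.4 CPM, log2 fold change 1.14, adjusted p = 0.000285), and without it 12 of 43 tested channel subunit genes were higher.

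*Trpm7* (chromosome 2, 126791558 to 126876262, minus strand), a magnesium and calcium channel fused to a kinase, stood at 94.7, 85.6 and 168 CPM in the mESC libraries and at 155, 92.6 and 99.1 CPM in the CPCC libraries. The groups overlapped (log2 fold change -0.0036 ± 0.30, adjusted p = 0.992), with S03 and S04 the high libraries. It made up 24.8% to 35.7% of the summed CPM of channel subunits in mESCs and 11.7% to 17.3% in CPCCs. That sum was 374, 345 and 470.0 CPM across S01 to S03 and 896, 790.5 and 739 CPM across S04 to S06. Without *Trpm7* it was 259 to 302 CPM in mESCs and 639.9 to 741 CPM in CPCCs.

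Compared per kilobase of exon, the order of levels differed between the cell types. Among the subunits reported here, *Kcnk1* stood first in mESCs at 29.0 CPM per kilobase, followed by *Trpm7* at 10.3, *Kcnj12* at 9.62, *Kcns3* at 4.67, *Cacnb3* at 4.04 and *Kcnk5* at 3.49. In CPCCs *Scn3b* stood first at 20.1 CPM per kilobase, followed by *Cacnb3* at 13.5, *Kcnk1* at 13.2, *Trpm7* at 10.2, *Kcne1l* at 9.10 and *Cacna2d1* at 5.68. Neighbours in the CPCC order overlapped between libraries: *Scn3b* ranged from 12.2 to 34.3 CPM per kilobase, *Cacnb3* from 11.6 to 16.3 and *Kcnk1* from 8.41 to 20.6. In mESCs the lowest *Kcnk1* library, at 21.9 CPM per kilobase, lay above every library of the other subunits.

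**Figure D5:**
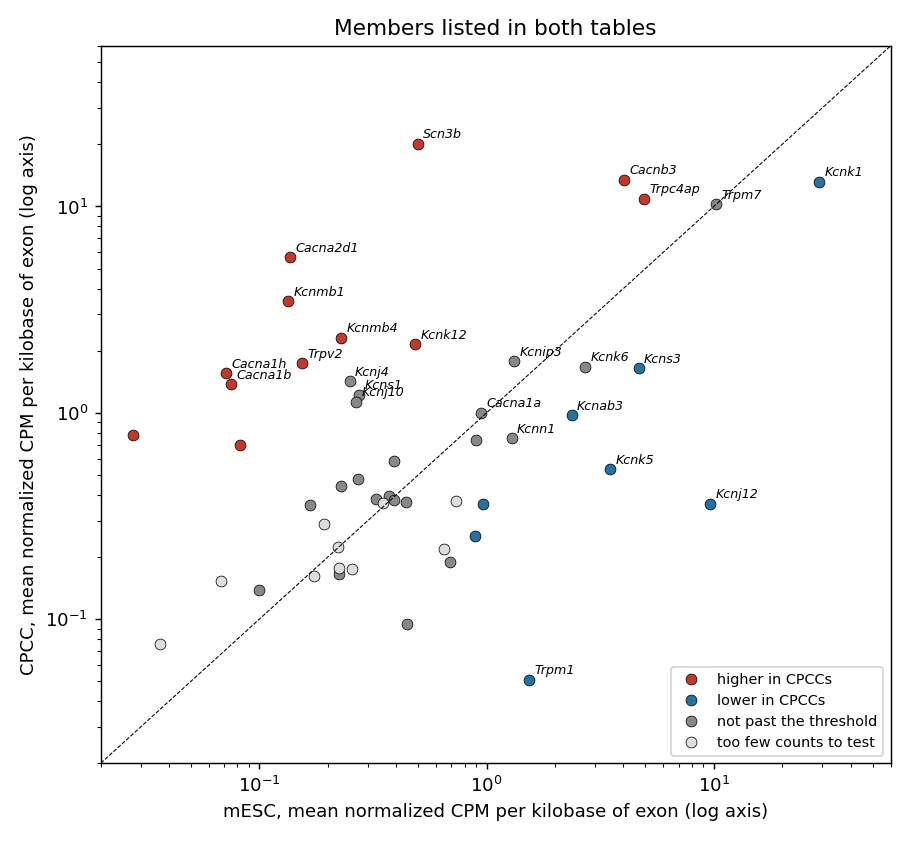
Mean normalized CPM per kilobase of exon in mESCs (x axis) and CPCCs (y axis), both on log axes, for 51 of the 54 members in both tables, coloured by call, with a dashed line of equal levels. *Kcnk1*, at 29.0 and 13.2, lies far to the right below the line, and *Scn3b*, at 0.497 and 20.1, lies at the top above it.

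A list of 37 subunit genes known from the heart was followed as a group. Of these, 32 were in a table, 13 of them in both, 18 in the CPCC table only and 1 in the mESC table only. Among the 12 tested, 4 were higher (*Cacna1c*, *Cacna1h*, *Cacna2d1* and *Kcnd3*), 3 were lower (*Kcnj12*, *Kcnk1* and *Hcn2*) and 5 did not pass the test (among them *Kcnk6*, *Scn2b*, *Trpm4* and *Trpm7*). These counts stand against a background of 31.7% higher and 29.7% lower over all tested genes. The median log2 fold change was 0.40 over the 12 tested genes, against 0.031 over all genes. It was 1.71 over 31 genes when missing genes were entered at their bounds, against 0.19 for all genes entered that way. The sign of a missing gene is set mainly by the table that lists it, so the 1.71 mostly restates the listing. Besides *Hcn4*, the cardiac genes *Kcna4*, *Kcne2*, *Kcnj3* and *Kcnj11* were in neither table. Over the annotation as a whole, 160 protein-coding genes of GENCODE M21 fit the naming rule, with *Kcnq1* left out, and 40 of them were in neither table.

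Genes that work with these channels also moved in both directions, and each list is read against the same background of 31.7% higher and 29.7% lower. Of 12 tested adaptors and binding partners, 6 were higher, among them *Ank2*, a membrane scaffold (log2 fold change 3.40, adjusted p = 2.32e-05), and 3 were lower. Of 19 tested genes of calcium release, uptake and exchange, 11 were higher and 2 lower. *Slc8a1*, the sodium-calcium exchanger of the heart, stood at 0, 0.294 and 1.76 CPM in the mESC libraries and at 65.5, 48.1 and 46.4 CPM in the CPCC libraries (log2 fold change 6.23, adjusted p = 5.29e-05), while *Itpr3*, an inositol trisphosphate receptor, fell by 1.29 on the log2 scale (adjusted p = 0.000446). Of 7 tested sodium pump and gap junction genes, 1 was higher and 4 were lower. The higher one was *Gja1*, which encodes connexin 43 (log2 fold change 4.67, adjusted p = 1.31e-06).

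Markers of the cell types a mixed culture could hold differed between the groups in both directions, and their counts are read against the background of 31.7% higher and 29.7% lower. All 8 pluripotency genes were lower in CPCCs, with summed levels of 5304 to 5568 CPM in mESCs and 122 to 286 CPM in CPCCs. All 4 tested smooth muscle genes were higher and the other 4 were in the CPCC table only, with sums of 15.8 to 22.1 CPM in mESCs and 6072 to 11285 CPM in CPCCs, beside the rises of *Kcnmb1* and *Cacna1c*. Of the mesenchymal genes 5 of 5 tested were higher and 5 were in the CPCC table only (1037 to 1271 CPM and 10717 to 15647 CPM). Of the neuronal genes 3 of 8 tested were higher, 5 did not pass the test and 4 were in the CPCC table only. Their sums were 498.8 to 514 CPM in mESCs and 698 to 977 CPM in CPCCs, with *Stmn2* the largest part. Among channel genes known from neurons, *Cacna1b* and *Kcnmb4* rose, while *Scn3a* and *Scn8a* did not pass the test. Of the neural progenitor genes 3 of 5 tested were higher, 2 were lower and 3 were in the CPCC table only (145 to 226 CPM and 378 to 628 CPM). Most of that mESC sum was *Sox2* (149, 127 and 202 CPM), which is also in the pluripotency list. Of the endothelial genes 1 of 2 tested was lower, 4 were in the CPCC table only and *Tie1* was in neither (92.3 to 101 CPM and 35.0 to 60.4 CPM). The lower gene, *Pecam1*, made up most of the mESC sum (93.0, 94.3 and 86.0 CPM), so the fall of the sum is mainly its own. In CPCCs it stood at 3.98, 3.27 and 6.07 CPM, while *Flt1*, a CPCC-only gene, had 31.1, 30.3 and 20.2 CPM. The part of these cell types in the channel results was not tested.

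The cardiac label was checked in the same way. Of 12 cardiac progenitor genes, 2 of 5 tested were higher (*Gata6* and *Tbx20*), 5 were in the CPCC table only, *Tbx5* was in the mESC table only and *Mesp1* in neither, with sums of 8.03 to 15.8 CPM in mESCs and 59.7 to 156 CPM in CPCCs. *Nkx2-5* had 1.59, 0 and 0.917 CPM in S04, S05 and S06. Of 14 cardiomyocyte genes, 2 of 6 tested were higher, 1 was lower and 6 were in the CPCC table only, with sums of 88.0 to 100.02 CPM in mESCs and 156 to 525 CPM in CPCCs, and *Tnni3* was absent from the CPCC table. *Tnnt2*, the cardiac troponin T gene, stood at 1.24, 1.18 and 2.34 CPM in the mESC libraries and at 103, 24.0 and 28.3 CPM in the CPCC libraries.

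Library S04 stood apart from the other CPCC libraries in several channel genes. It was over 2-fold below both S05 and S06 in 11 of the 44 tested members (25.0%), against 8.32% of all tested genes. It was over 2-fold above both in 2 members, against 478 of all 12471 tested genes. Members were weakly expressed beside all genes, and some of the 11 rest on few counts, such as *Kcnh3* with 0, 5 and 9 from S04 to S06. Among the 11 were *Kcna2*, *Kcnh3*, *Kcnj10*, *Kcnj12*, *Kcnn1*, *Scn8a*, *Cacna1h*, *Cacna2d2* and *Trpm4*, and among the 2 was *Scn3b*. In S04 the neural progenitor sum was 378 CPM, against 628 and 601 CPM in S05 and S06. The cardiomyocyte sum was 525 CPM in S04, against 156 and 178 CPM. The neuronal sum was 977 CPM in S04, against 698 and 722 CPM, but *Stmn2* made up 682 CPM of it (442 and 406 CPM in S05 and S06). *Stmn2* and *Tubb3* were highest in S04, while most other neuronal genes of the list were lowest there, such as *Map2* at 12.8, 27.4 and 35.8 CPM. The part of these lists in the channel values of S04 was not tested. Without S04, 17 members were higher and 8 lower.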

How the data were processed

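RNA of 3 mESC and 3 CPCC libraries was extracted with a column kit, and polyA+ cDNA was made with SMART-Seq v4 and sequenced as paired ends. The authors deposited estimated counts per gene in separate tables for mESCs and CPCCs, with no normalization and both alleles together. The submitters' processing notes name STAR 2.7 and mm10, and the counter and its use of strand are not given in the sources used here. Between 17.9% and 21.5% of the values in a library were not whole. Each table holds only genes with at least 10 counts over its 3 libraries. Columns carry no replicate numbers. Where nothing ties a library to its clone, p-values measure only the spread between these libraries.

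Counts were rounded and compared with edgeR 4.0.16 in R 4.3.3 (quasi-likelihood test, TMM, filterByExpr, library sizes over the 13001 genes in both tables), with Benjamini-Hochberg adjustment over all 12471 genes tested and a threshold of 0.05. The study's own methods used DESeq2 for this comparison, and DESeq2 1.42.0 was run as an alternative. For a gene missing from 1 table, the fold is a bound against 3 counts per library, on average 0.448 CPM in mESCs and 0.335 CPM in CPCCs, without a test. Bounds cover counting error only. Positions are those of the tables on GRCm38, where the end of a gene may be 1 base past the last. Exon lengths and overlaps came from GENCODE M21 and promoter sequences from RefSeq (GRCm38.p6).

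Members and gene lists were chosen with earlier results of these data known. The lists were cardiac channel subunits, 3 lists of channel partners and 8 lists of cell type markers. Genes named with full values are the cardiac list, the largest rise and fall of each family, the 8 largest rises and 8 largest falls past the threshold, and the 6 largest bounds in each table. Other members are named by family, and those whose call depends on 1 library were named after their values were seen. Some genes of these families and lists are not reported here by name or value, but those in the tables stay in the fits and counts. The alternatives were other normalizations and library sizes, no filter or at least 10 counts in every library, tests over genes in either table, a 2-fold threshold, leaving out each library and, added after the data were seen, leaving out the 4 genes that are not channel subunits. The fits were tested on simulated data.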

Additional observations from a re-analysis of the deposited data

How the results depend on the processing

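The main counts were 13 members higher and 8 lower in CPCCs, with a median log2 fold change of 0.51. Requiring at least 10 counts in every library left 15 members to test, of which 2 were higher and 4 lower, with a median of 0.070. That filter drops genes with few mESC counts, so it cannot show whether their rises hold. Testing the genes in either table took in 66 members of 13630 genes, and for a gene in 1 table the direction is set by its absence from the other, so these counts bear on no direction. With missing genes at 0 counts 33 were higher and the median was 1.93, and with missing genes at 3 counts 32 were higher and the median was 1.83; 12 were lower in both. Of all genes, 8848 and 9011 were called in those fits. Leaving out 1 library at a time gave 12 to 17 higher and 4 to 8 lower members and medians of 0.24 to 0.62. The counts stayed within 1.5 times the main ones with DESeq2 (15 higher and 10 lower), upper-quartile normalization, library totals without TMM, library sizes over whole tables, no filter, a 2-fold threshold and without the 4 genes that are not channel subunits (12 higher and 8 lower). Partner gene counts (18 higher and 9 lower) stayed within that range under every alternative. Of the 21 called members, 15 kept call and sign in each of the 14 refits that tested them (most were not tested with at least 10 counts in every library), and 6 lost the call when 1 library was left out. Another 9 members gained a call under at least 1 setting, and 8 that were not called changed sign. The log2 fold change of *Trpm7*, -0.0036 in the main comparison, was 0.0053 with library sizes over whole tables, 0.026 without the filter, 0.070 with at least 10 counts in every library, 0.027 with missing genes at 0 counts and -0.26 to 0.36 when libraries were left out. That of *Trpm4* was -0.027 to 0.63 when libraries were left out. The cause of these shifts was not tested, apart from the smaller or larger set of genes that a filter leaves. No paired analysis was possible because the columns carry none of the replicate numbers of the labels. Low counts limit most of these genes: 10 of the 54 in both tables could not be tested, and a gene absent from a table is below 10 counts there, not shown to be silent.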
